A study of Mus musculus with 6 samples.

Results

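Wnt proteins are secreted, lipid-modified signals that bind Frizzled receptors, and Fzd2, which encodes one of these receptors, was the gene targeted in these lungs. The genes described here are 8 Wnt ligands known from the lung or its surroundings (Wnt2, Wnt2b, Wnt4, Wnt5a, Wnt6, Wnt7b, Wnt9a and Wnt11) and 2 genes that every Wnt-producing cell needs for secretion (Porcn and Wls). They were chosen by name, and all 10 were measured, among 22180 genes in all. Each had a single probe set, the group of probes on the array that reads 1 transcript, whose annotation carried only that gene's symbol. The mutant group was 3 lungs of genotype Fzd2Flox/Flox; Shh cre/+, and the control group was 3 lungs of genotype Shh cre/+. All 6 lungs thus carried 1 copy of a Cre recombinase allele at Shh, a gene active in the lung epithelium, so Fzd2 is aimed at in the epithelium and is left in place in mesenchyme. Whole lung buds were dissected at E12.5, and 100 ng of total RNA was amplified for each array. The stated purpose was to find genes regulated by Fzd2 signalling in the lung epithelium.

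A Wnt ligand receives its lipid from Porcn, an acyltransferase of the endoplasmic reticulum, and is carried to the cell surface by Wls, a membrane protein that is recycled by the retromer complex. Secreted Wnts act mostly on nearby cells. Depending on the ligand, the receptor and the cell, they stabilise beta-catenin and switch on target genes, or act on cell shape and polarity without it. In the developing mouse lung, ligands from the mesenchyme and from the epithelium signal between the layers: mouse embryos that lack both Wnt2 and Wnt2b form no lung, and those that lack Wnt7b have small lungs.

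Values are log2 expression values, so a step of 1 is a doubling. Array medians over 41345 probe sets lay between 7.29 and 7.32. The defining markers of lung were present on every array: the epithelial factor Nkx2-1 averaged 10.08 in mutant and 10.49 in control lungs, and the mesenchymal factor Foxf1 12.09 in mutant and 12.15 in control lungs. The mean of 28 epithelium marker genes was 8.87, 8.75 and 8.85 in mutant replicates 1 to 3, against 9.10, 9.09 and 9.02 in control replicates 1 to 3. Fzd2 itself averaged 9.43 ± 0.32 in mutant lungs and 9.71 ± 0.13 in control lungs (SD, n = 3 each), and the groups overlapped (adjusted p = 0.475 by limma). Some arrays stood apart in genes of other tissues. The mean of 9 genes known from adult small intestine was 9.59 in control replicate 1 and at most 6.34 elsewhere. The mean of 7 genes known from adipose tissue was 9.62 in mutant replicate 2 and at most 7.26 elsewhere, and that of 8 heart muscle genes was 9.35 in mutant replicate 1 and at most 8.16 elsewhere. Control replicate 2 was the array without signal from Y-linked genes (mean of 3 genes 5.63, against at least 10.39 elsewhere). The part of these differences in the values below was not tested, beyond leaving out arrays. The labels call the arrays biological replicates and do not say whether each was 1 embryo or a pool.

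None of the 10 genes differed between mutant and control lungs at an adjusted p under 0.05 (0 of 10 by limma, adjusted over all genes, with 1 of 10 higher and 0 lower at an unadjusted p under 0.05). Over all genes limma called 14, which is 0.0631%. At an unadjusted p under 0.05, 7.34% of all genes were higher and 5.15% lower in mutants, so the share of these 10 genes was near the background. The mean was higher in mutants for 6 genes and lower for 4, and the median of the 10 differences was 0.06, against 0.01 over all genes. Adjusted p-values ran from 0.396 for Wnt6 to 0.991 for Wnt2. Intervals of the differences bound measured whole-lung values, and not a change within 1 cell layer. Wnt6, Wnt5a, Wnt9a and Wnt4 averaged 6.95, 7.61, 7.62 and 7.70 over the 6 arrays, near the array medians. Whether such probe sets were above background cannot be read from the deposited values, and differences near background are compressed. For these genes the intervals therefore do not bound a change in the transcript. The 95% intervals of the 10 differences, which are not adjusted for the number of genes, lay between -0.45 and 0.59 on the log2 scale, or between 73.2% and 150% of the control level. Porcn was the only one of the 10 whose mutant and control values did not overlap, whereas 19.4% of all genes showed such a separation. In whole lungs, fewer cells of a type and less RNA per cell cannot be told apart.

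**Figure D1:**
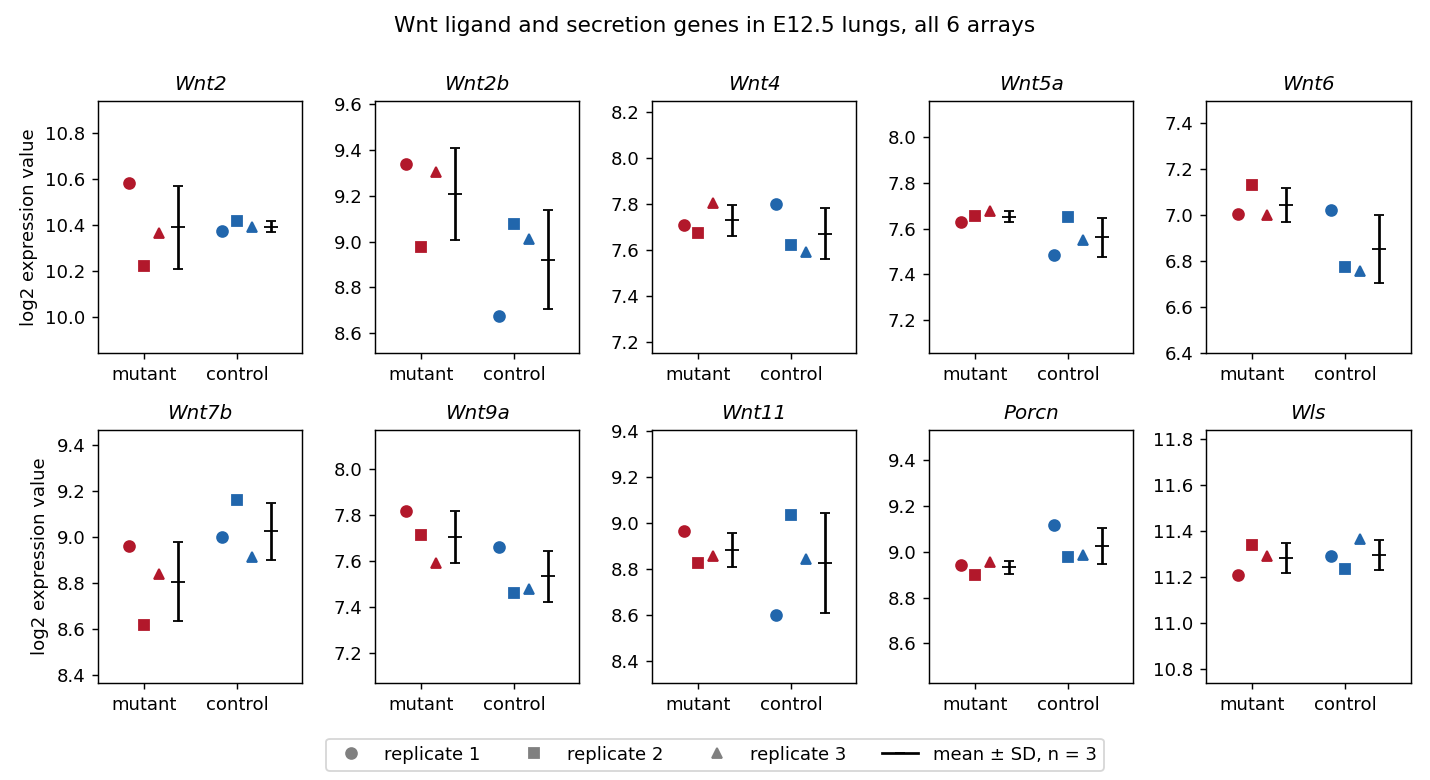
Log2 expression values of the 10 genes on all 6 arrays, with mutant lungs in red to the left of control lungs in blue; each vertical axis spans the same 1.1 log2 units, symbols mark replicates, and black bars are the mean ± SD (n = 3). Mutant and control points overlap in 9 genes, and in Porcn the 3 mutant points lie just below the 3 control points.

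Wnt2 is the main Wnt ligand of the distal lung mesenchyme. It had log2 values of 10.58, 10.22 and 10.37 in mutant replicates 1 to 3, against 10.37, 10.42 and 10.39 in control replicates 1 to 3. The control lungs lay within a narrow band (SD 0.02), and the mutant lungs scattered on both sides of it (SD 0.18), with replicate 1 above every control array and replicates 2 and 3 below. The group means were thus close, 10.39 in both mutant and control lungs. The log2 difference was -0.0036 (SE 0.09, adjusted p = 0.991 by limma), and its sign turned to 0.03 after a further quantile normalization of the arrays. The mutant level was 99.8% of control, with a 95% interval from 86.6% to 115%.

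Wnt2b, the closest relative of Wnt2 in sequence and its partner in specifying the lung, had log2 values of 9.34, 8.98 and 9.30 in mutant lungs, against 8.68, 9.08 and 9.01 in control lungs. Mutant replicates 1 and 3 lay above every control array, while mutant replicate 2 lay below 2 of the 3 controls. This was the largest difference among the 10 genes, at 0.28 (SE 0.13), or 122% of the control level with an interval from 98.7% to 150%, and limma did not separate it from the spread between arrays (adjusted p = 0.424). That spread was itself wide: the within-group SD of Wnt2b, 0.21, was larger than that of 96.1% of genes. An exact permutation test of the 6 arrays, two-sided, gave p = 0.3, where 3 against 3 cannot give less than 0.1. Without control replicate 1, the lowest array, the difference was 0.16, and without mutant replicate 2 it was 0.40.

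The promoters of these related ligands are shown because Wnt2 had the smallest and Wnt2b the largest difference in size among the 10 genes. Neither was called, and the contrast between them was not tested. Both sequences are the RefSeq windows of build GRCm38.p6, from 250 bases before to 50 bases after the gene's start, on the minus strand, at chr6:18030396-18030695 for Wnt2 and chr3:104961660-104961959 for Wnt2b. Capitals mark matches on either strand to GGGCGG, the GC box bound by Sp factors, and to CTTTGA, the core bound by the TCF/LEF factors of beta-catenin signalling. Matches that overlap by a base are both counted.
Wnt2: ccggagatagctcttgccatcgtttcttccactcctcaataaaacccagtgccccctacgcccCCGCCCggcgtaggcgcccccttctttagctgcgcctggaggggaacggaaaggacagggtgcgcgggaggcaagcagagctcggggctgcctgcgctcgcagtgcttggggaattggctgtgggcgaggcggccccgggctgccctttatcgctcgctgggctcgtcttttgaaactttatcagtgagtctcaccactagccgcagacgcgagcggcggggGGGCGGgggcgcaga
Wnt2b: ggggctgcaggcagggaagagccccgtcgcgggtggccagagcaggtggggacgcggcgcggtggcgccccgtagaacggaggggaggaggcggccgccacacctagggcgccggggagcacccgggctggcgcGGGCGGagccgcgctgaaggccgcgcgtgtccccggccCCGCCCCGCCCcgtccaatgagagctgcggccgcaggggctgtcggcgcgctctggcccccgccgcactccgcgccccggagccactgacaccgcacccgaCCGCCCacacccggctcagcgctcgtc
The Wnt2 window held 2 GC boxes and the Wnt2b window 4. GC boxes occur in 35.7% of all 32851 promoter windows of this length, and neither sequence held CTTTGA, which 16% of windows hold. The GC content was 65.7% for Wnt2 and 79.7% for Wnt2b, against a median of 52.7% over all windows.

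Wnt5a, a ligand of distal epithelium and mesenchyme that acts largely without beta-catenin and limits branching in the mouse lung, had log2 values of 7.63, 7.65 and 7.68 in mutant lungs, against 7.48, 7.65 and 7.55 in control lungs. The mutant values lay close together, within the upper part of the control range or just above it, and only control replicate 2 overlapped them. The log2 difference was 0.09 (SE 0.06, adjusted p = 0.534 by limma). The interval for the mutant level, from 97.2% to 117% of control, was among the narrower of the 10. The level was near the array medians, where detection is not known, so a narrow interval need not closely bound the transcript.

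Wnt7b, which airway epithelium makes and which drives growth of both layers, had log2 values of 8.96, 8.62 and 8.84 in mutant lungs, against 9.00, 9.16 and 8.91 in control lungs. Mutant replicate 1 reached into the control range, above control replicate 3, and mutant replicate 2 was the lowest array. This was the most negative difference of the 10, at -0.22 (SE 0.10), or 86.0% of the control level with an interval from 73.2% to 101%, and it was not called (adjusted p = 0.424 by limma). The difference was -0.12 without mutant replicate 2 and -0.30 without mutant replicate 1, so both values keep the sign and neither was called.

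Because Wnt7b comes from the epithelium, its values are given beside those of the epithelium markers. Of 28 epithelium genes 27 had lower means in mutants, 18 were lower at an unadjusted p under 0.05 and 1 was called over all genes, where 5.15% of all genes were lower at that unadjusted p. Their median log2 difference was -0.25, beside the -0.22 of Wnt7b. Single genes of the list ran widely, from -0.48 for Esrp1 to 0.0023 for Crb3, so a match to the median is a loose one. Array by array, Wnt7b stood at -0.06, -0.41 and -0.18 relative to its control mean in mutant replicates 1 to 3, and the epithelium list mean at -0.20, -0.33 and -0.22. Both measures were lowest in mutant replicate 2. With the list mean subtracted from Wnt7b on each array, the difference between mutant and control lungs was 0.03, with p = 0.8 by the same exact permutation test. Its 95% interval by limma ran from -0.15 to 0.21. The subtraction takes Wnt7b to move 1 for 1 with the list mean, which was not tested. Because the list mean was lower in mutants, subtraction raised every difference. It put the other ligand and secretion genes between 0.15 (Porcn) and 0.53 (Wnt2b). With the list mean as a covariate the difference of Wnt7b turned to 0.39 (adjusted p = 0.888 by limma). That value cannot be read as a change in Wnt7b, because the list mean itself separated the groups. It stood at 0.03, 0.02 and -0.05 in control replicates 1 to 3, so the fit can hardly tell it from genotype.

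**Figure D2:**
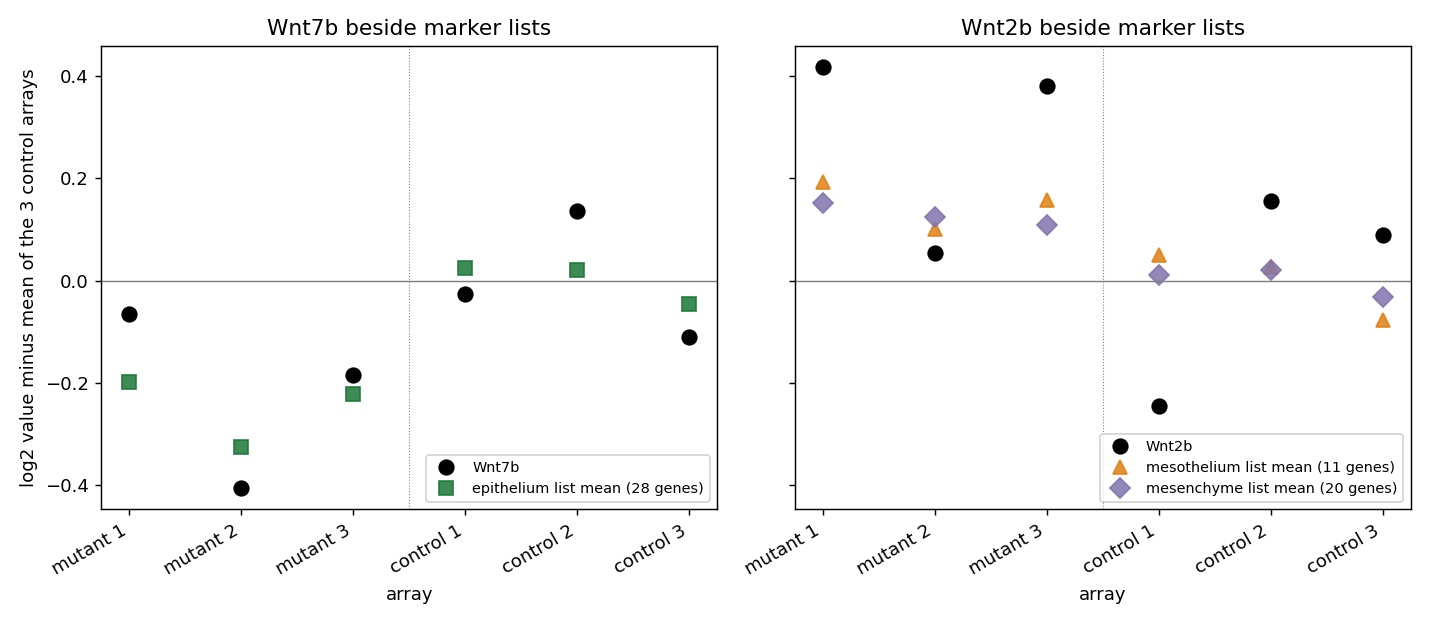
Each array's log2 value minus the mean of the 3 control arrays, for Wnt7b with the mean of 28 epithelium genes (left) and for Wnt2b with the means of 11 mesothelium and 20 mesenchyme genes (right). The epithelium mean and Wnt7b are both below 0 in all 3 mutant lungs and lowest in mutant replicate 2. On the right, both list means and Wnt2b are above 0 in all 3 mutant lungs. Wnt2b is also above 0 in control replicates 2 and 3, both above mutant replicate 2. It is lowest in control replicate 1, where both list means are above 0.

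The genes whose profile over the 6 arrays was most like that of Wnt7b were Ap1m2, Grb7 and Sfxn2, with root mean square differences of 0.02, 0.03 and 0.04 log2 units after centring each gene on its own mean. Ap1m2, which encodes an adaptor subunit for sorting proteins to the basolateral membrane of epithelial cells and is one of the 28 epithelium genes, had log2 values of 8.20, 7.88 and 8.06 in mutant lungs, against 8.23, 8.37 and 8.16 in control lungs. Its order of arrays matched that of Wnt7b, highest in control replicate 2 and lowest in mutant replicate 2. Likeness over 6 arrays among 1674 candidate genes is a description only. By the same measure Wnt2 was closest to the ribosome assembly gene Ppan (0.03), to Grwd1 (0.03) and to Gdpd5 (0.03), among 4801 candidates. Wnt5a was closest to Mex3d (0.01), to the spliceosome gene Snrpb2 (0.02) and to Zhx1 (0.03), among 8460 candidates.

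Wnt2b is known from mesoderm, and its values are given beside the mesenchyme and mesothelium lists for the same reason. The mesothelium mean stood at 0.19, 0.10 and 0.16 above its control mean in mutant replicates 1 to 3, and the mesenchyme mean at 0.15, 0.13 and 0.11. In mesothelium 10 of 11 genes had higher means in mutants and 3 were higher at an unadjusted p under 0.05. In mesenchyme 12 of 20 had higher means, 9 were higher at that p, and 1 was called over all genes. The share of all genes at the unadjusted p was 7.34% higher and 5.15% lower. The other 8 mesenchyme genes had lower means, among them Foxf1 (-0.06), Tbx5 (-0.09) and Tcf21 (-0.10). Only Ptch1 (-0.18) was lower at that p. The largest rises in the list were in Lum (0.61), Dcn (0.54) and Prrx1 (0.50). These mesenchyme genes were named after their values were seen. Wnt2b was at 0.42, 0.05 and 0.38 in mutant replicates 1 to 3, and at -0.25, 0.16 and 0.09 in control replicates 1 to 3. On those control arrays the mesothelium mean was at 0.05, 0.03 and -0.08, and the mesenchyme mean at 0.01, 0.02 and -0.03. Wnt2b was thus lowest in control replicate 1, where both list means were above 0. The part of these cell types in the Wnt2b values was not tested.

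Among the other ligands, Wnt6 had the smallest p. Wnt6, which is known from epithelia such as the kidney's ureteric bud, had log2 values of 7.00, 7.13 and 7.00 in mutant lungs, against 7.02, 6.77 and 6.76 in control lungs. All mutant arrays lay above control replicates 2 and 3, while control replicate 1 lay above 2 of the 3 mutants. The log2 difference was 0.19 (SE 0.08), with an unadjusted p of 0.0471 and an adjusted p = 0.396 by limma. Without control replicate 1 the difference was 0.28 (adjusted p = 0.206), the lowest adjusted p reached by any of the 10 genes in any of the fits run.

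Wnt9a, known for its role in joint formation, had log2 values of 7.82, 7.71 and 7.59 in mutant lungs, against 7.66, 7.46 and 7.48 in control lungs. Mutant replicates 1 and 2 lay above every control array, and mutant replicate 3 lay below control replicate 1. The difference was 0.17 (SE 0.08, adjusted p = 0.424 by limma), or 113% of control with an interval from 99.3% to 128%.

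Wnt4, which is required for kidney tubules and female reproductive tract in the mouse, had log2 values of 7.71, 7.67 and 7.80 in mutant lungs, against 7.80, 7.62 and 7.59 in control lungs. The groups spanned nearly the same range, with a difference of 0.06 (SE 0.07, adjusted p = 0.75 by limma).

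Wnt11, a ligand of cell movement and polarity, had log2 values of 8.97, 8.83 and 8.86 in mutant lungs, against 8.60, 9.04 and 8.84 in control lungs. Here the control lungs were the more spread, with an SD of 0.07 in mutant and 0.22 in control lungs, and all mutant values fell between the extremes of the controls. The difference was 0.06 (SE 0.11, adjusted p = 0.847 by limma), and without control replicate 1 it turned to -0.06.

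The promoters of Wnt6 and Wnt11 are shown because Wnt6 had the smallest p of the 10 genes and because the Wnt11 window was the only one of 8 windows, from 7 of the genes, that held CTTTGA. They are again RefSeq windows of build GRCm38.p6, on the plus strand, at chr1:74771642-74771941 for Wnt6 and chr7:98834862-98835161 for Wnt11, with the same capitals.
Wnt6: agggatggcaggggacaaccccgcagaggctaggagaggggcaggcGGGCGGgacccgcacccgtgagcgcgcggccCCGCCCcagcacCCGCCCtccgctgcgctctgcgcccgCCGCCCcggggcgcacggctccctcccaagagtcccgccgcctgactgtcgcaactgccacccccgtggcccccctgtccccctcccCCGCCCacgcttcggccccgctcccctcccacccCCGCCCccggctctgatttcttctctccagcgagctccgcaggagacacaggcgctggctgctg
Wnt11: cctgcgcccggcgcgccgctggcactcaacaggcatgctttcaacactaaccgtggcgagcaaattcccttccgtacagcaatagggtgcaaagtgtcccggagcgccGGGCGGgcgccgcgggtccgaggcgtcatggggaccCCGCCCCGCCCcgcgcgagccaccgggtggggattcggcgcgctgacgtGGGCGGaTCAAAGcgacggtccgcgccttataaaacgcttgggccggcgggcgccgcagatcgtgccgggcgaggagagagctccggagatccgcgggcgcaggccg
The Wnt6 window held 6 GC boxes and the Wnt11 window 4, and Wnt11 held 1 match to CTTTGA on the opposite strand, next to a GC box. Wnt11 has a second window in the table, which held 1 GC box. All 8 windows held at least 1 GC box, and their GC content ran from 58.0% in Wls to 84.3% in Wnt4. Over all promoter windows 35.7% held a GC box, and the median GC content was lower, at 52.7%. CTTTGA in 1 of 8 windows was near its share of 16% over all windows, and so does not mark out Wnt11. A match is a string of letters and not a measured binding site. No promoter of Wnt5a, Wnt7b or Porcn is printed.

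The secretion genes were among the most evenly measured of the set. Wls had log2 values of 11.21, 11.34 and 11.29 in mutant lungs, against 11.29, 11.23 and 11.36 in control lungs. The values of the groups interleaved, and the difference was -0.02 (SE 0.06, adjusted p = 0.932 by limma), a sign that turned after a further quantile normalization (0.0071). The mutant level was 98.9% of control, with an interval from 90.1% to 109%. Porcn had log2 values of 8.94, 8.90 and 8.95 in mutant lungs, against 9.12, 8.98 and 8.99 in control lungs. Every mutant value was below every control value, by a small margin between mutant replicate 3 and control replicate 2, and control replicate 1 was the highest. The difference was -0.10 (SE 0.06, adjusted p = 0.509 by limma), or 93.6% of control with an interval from 85.6% to 102%, and without control replicate 1 it was -0.05. By the exact permutation test p was 0.1, the smallest that 3 against 3 allows. Of all genes, 8.83% had mutant values wholly below the control values.

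**Figure D3:**
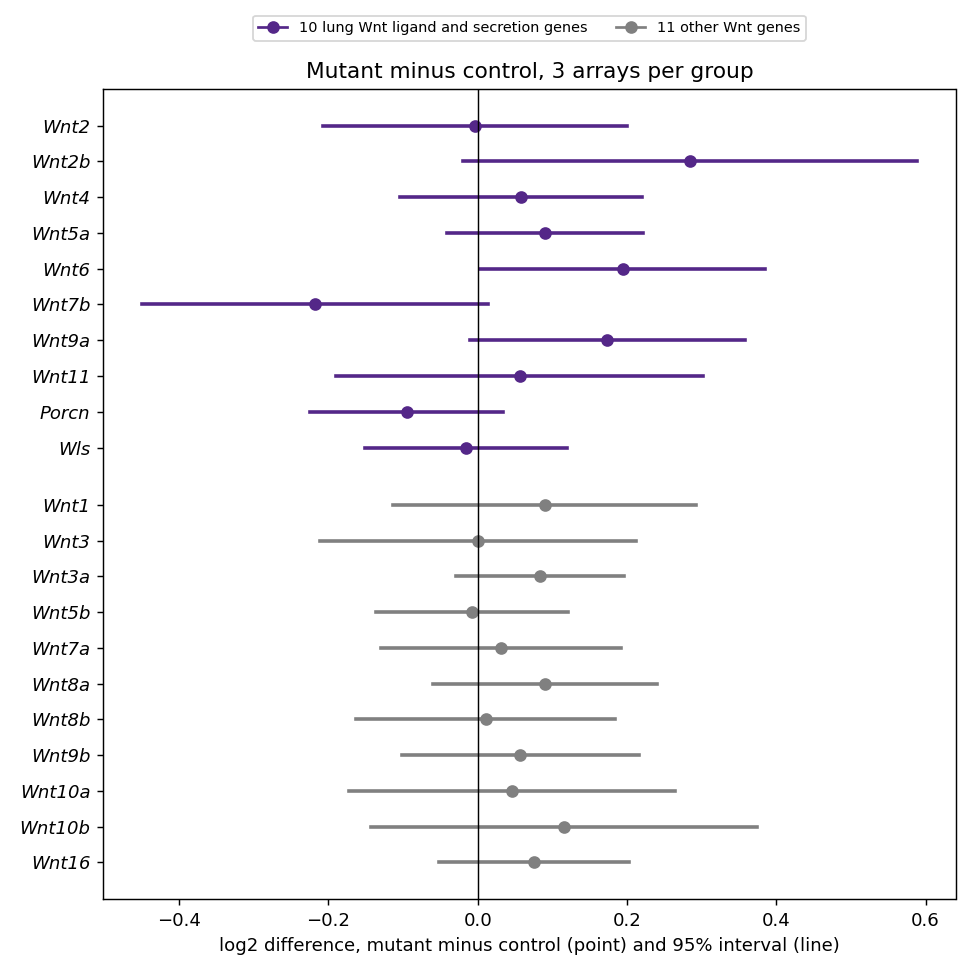
Log2 difference between mutant and control lungs (points) with limma's unadjusted 95% interval (lines) for the 10 lung Wnt ligand and secretion genes in purple and the 11 other Wnt genes in grey. All intervals except that of Wnt6, whose lower end is 0.0032, include 0.

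The mouse has 19 Wnt genes, and the other 11 were measured as well. None passed over all genes or at an unadjusted p under 0.05 (0 of 11 by limma). The means of 10 of the 11 were higher in mutants. The median difference was 0.06 on the log2 scale, with a range from -0.0073 for Wnt5b to 0.12 for Wnt10b. Leaving out mutant replicate 1 raised the median to 0.087, and leaving out mutant replicate 3 gave 0.039. Leaving out control replicate 1 raised it to 0.091, and leaving out control replicate 2 gave 0.025. It was 0.021 with arrays centred on their medians, taken over the 22180 genes and not over all probe sets. Next to Wnt10b the highest was Wnt8a at 0.09, and next to Wnt5b the lowest was Wnt3 at 0.00048. With the 8 ligands above included, 16 of 19 Wnt genes had a higher mean in mutants, against 12153 of all 22180 genes. Centring arrays on their medians lowers all differences alike, so both counts depend on that step. The mean of the 11 other Wnt genes was highest in control replicate 1, at 6.99. It was 6.92, 6.96 and 6.98 in mutant replicates 1 to 3. Whether the dimmer of these probe sets were above background cannot be read from the deposited values, and small differences near background are compressed.

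Several Wnt genes sit side by side in the genome, in pairs without a protein-coding gene between them in the RefSeq table. Wnt6 lies next to Wnt10a on chromosome 1, and Wnt10a had a difference of 0.05 (SE 0.09) beside the 0.19 of Wnt6. Wnt9a lies next to Wnt3a on chromosome 11, and Wnt3a had 0.08 (SE 0.05) beside the 0.17 of Wnt9a. Wnt3a values were 6.66, 6.73 and 6.70 in mutant lungs, against 6.65, 6.62 and 6.57 in control lungs. The groups did not overlap, and 10.6% of all genes likewise had every mutant value above every control value. Wnt3a was not called (adjusted p = 0.509 by limma). Wnt3 and Wnt9b are neighbours on the same chromosome as Fzd2, with 29 coding genes between Fzd2 and Wnt3. Their differences were 0.00048 (SE 0.09) and 0.06 (SE 0.07), and neither was called.

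Of 18 measured genes that help Wnts leave or travel between cells, none was called (0 by limma, with 2 higher and 1 lower at an unadjusted p under 0.05). Over all genes 7.34% were higher and 5.15% lower at that p, so these counts were near the background. Groups did not overlap in 6 of the 18, against 19.4% of all genes, and this contrast was not tested. Of the 6, 4 were higher in mutants (Snx3, Notum, Trabd2b and Sulf1) and 2 lower (Tmed10 and Gpc6). Notum differed by 0.14 (SE 0.07, adjusted p = 0.446 by limma). The median log2 difference was 0.01, as over all genes. The 5 genes of the retromer and its Wls-sorting nexin Snx3 had differences between -0.01 and 0.08, and the 3 genes of the p24 family, which carry cargo out of the endoplasmic reticulum, between -0.04 and 0.03. Sulf1, Gpc6 and Trabd2b were those at an unadjusted p under 0.05. Sulf1, which trims sulfate from heparan sulfate chains and so alters how Wnts are held, had log2 values of 11.46, 11.43 and 11.56 in mutant lungs, against 11.27, 11.29 and 11.09 in control lungs. Its mutant values were all higher, as in 10.6% of all genes, with a difference of 0.27 (SE 0.07, adjusted p = 0.248 by limma). Gpc6, a heparan sulfate proteoglycan of the cell surface, had values of 11.43, 11.40 and 11.32 in mutant lungs, against 11.58, 11.56 and 11.46 in control lungs. Its mutant values were all lower, as in 8.83% of all genes, with a difference of -0.16 (SE 0.06, adjusted p = 0.340 by limma). Trabd2b, a membrane protease that cuts and inactivates Wnts, differed by 0.26 (SE 0.10, adjusted p = 0.350 by limma). Scd1, which makes the fatty acid that Porcn attaches, stood at 12.91 in mutant replicate 2, the array that was high in adipose genes, and between 9.06 and 10.13 on the other 5. Trabd2b, Scd1, Snx3, Notum and Tmed10 were named after their values were seen.

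Of 17 receptor and coreceptor genes, Fzd2 included, none was called (0 by limma, with 1 lower at an unadjusted p under 0.05). That count was near the background, where 5.15% of all genes were lower and 7.34% higher at that p. The other 9 Frizzled genes had differences between -0.12 and 0.14, and the 7 genes of other receptors and coreceptors between -0.06 and 0.12. By p the lowest were Fzd3 (-0.12, SE 0.05, adjusted p = 0.396 by limma) and Mcam (0.12, SE 0.05, adjusted p = 0.424). Ror2, a receptor for Wnt5a, differed by -0.03 (SE 0.05), and Lrp5 and Lrp6, the coreceptors of beta-catenin signalling, by 0.03 and -0.06. Ror2, Lrp5 and Lrp6 were named after their values were seen.

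**Figure D4:**
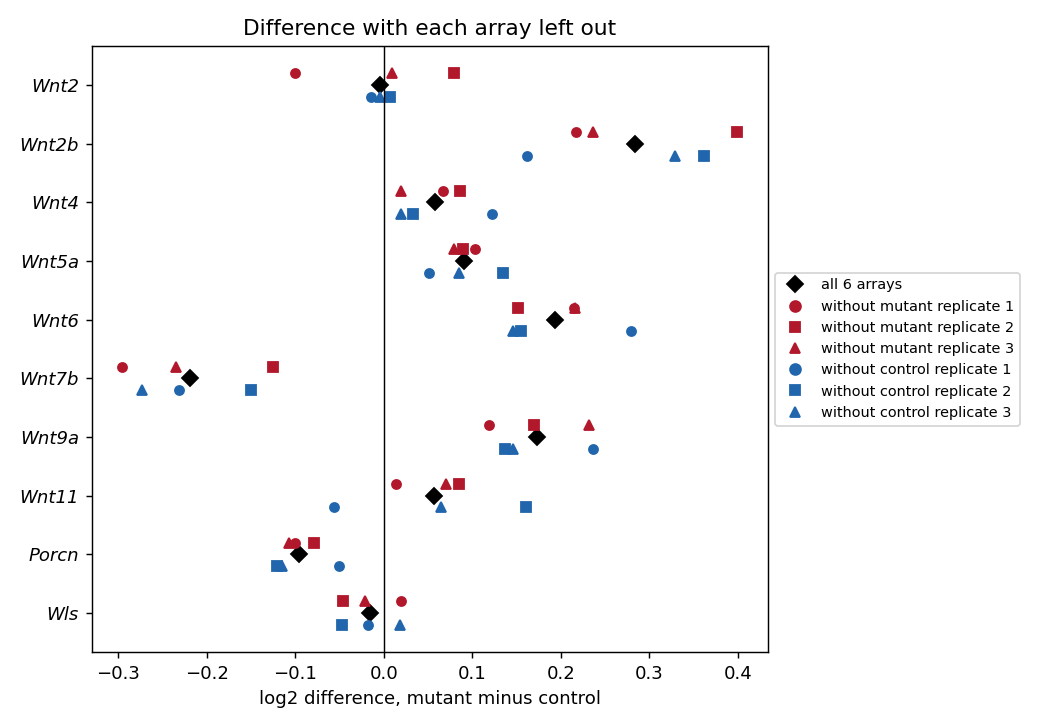
Log2 difference between mutant and control lungs for each of the 10 genes with all 6 arrays (black diamonds) and with each array left out, mutant arrays in red and control arrays in blue. Wnt2, Wnt11 and Wls cross 0 when single arrays are left out, and the other 7 genes keep their sign in all 6 such fits.

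With each array left out in turn, 7 of the 10 genes kept the sign of their difference in all 6 fits. Wnt2b ran from 0.16 to 0.40, Wnt6 from 0.15 to 0.28 and Wnt9a from 0.12 to 0.24. Wnt7b ran from -0.30 to -0.12 and Porcn from -0.12 to -0.05. Wnt4 ran from 0.02 to 0.12, highest when control replicate 1 was dropped, and Wnt5a from 0.05 to 0.13, highest when control replicate 2 was dropped, while Wnt2, Wnt11 and Wls crossed 0. Without mutant replicates 1 and 2 and control replicate 1, the arrays high in genes of heart, adipose tissue and small intestine, Wnt2b was at 0.26, Wnt6 at 0.24 and Wnt7b at -0.20. That fit was chosen after the data were seen, rests on 1 mutant array that is assumed to vary like the controls, and called none of the 10 genes (0 by limma, with 2 at an unadjusted p under 0.05).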

How the data were processed

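The values deposited by the authors are log2 expression values for 6 arrays in 1 table. The submitters' processing notes name oligo and RMA, and the sources used here give no version or filter. The range of the values (3.55 to 14.04) shows a log2 scale. RMA brings arrays to a common distribution at the level of single probes, before probe sets are formed. The deposited probe set values were not fully alike, with array medians from 7.29 to 7.32. Changes are still relative to the bulk of genes, and levels of different probe sets cannot be compared. Of 41345 probe sets, 23521 had 1 gene symbol and gave 22180 genes. The brightest probe set by mean was used for 1082 genes with several. The test was limma's lmFit with eBayes (version 3.58.1, R 4.3.3), with genotype as the sole term, two-sided, and p adjusted by Benjamini-Hochberg over all genes at a threshold of 0.05. It was tested on simulated data. With 3 arrays per group, the number of arrays limits precision.

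The genes, lists and tests were chosen with earlier results of these data known. The promoter motifs, the values relative to epithelium markers and 1 fit that left out 3 arrays were chosen after the values were seen. The naming rule takes all 10 genes, other Wnt genes by p, extreme difference or position, the 2 list genes with the smallest p, and the 3 genes most like a ligand in profile (mean above the median gene, SD at least 0.75 times the ligand's). Lists of 12 endothelial, 12 leukocyte and 10 smooth muscle genes had 1 lower, 4 higher and 4 lower genes at an unadjusted p under 0.05, where 7.34% of all genes were higher and 5.15% lower. Promoters of 7 of the 10 genes were matched by symbol. Figures used matplotlib 3.10.9 in Python 3.11.15.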

Additional observations from a re-analysis of the deposited data

How the results depend on the processing

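None of the 10 genes was called in any alternative fit (0 of 160 gene fits by limma at an adjusted p under 0.05, lowest adjusted p = 0.206), and at an unadjusted p under 0.05 there were between 0 and 3 of the 10. Wnt2b, Wnt4, Wnt5a, Wnt6 and Wnt9a kept a positive sign in every alternative run. With averaged probe sets, the 30th percentile filter, the trended, robust variance or the replicate block, all 10 differences were those of the main fit. No sign could turn in those fits, although they count among the 160. Signs turned in 15 of the 160: Wnt2 to 0.027 and Wls to 0.0071 after a further quantile normalization, Wnt2 to 0.0095 with array weights, Wnt2 to 0.069 and Wnt11 to -0.027 without control replicate 1 and mutant replicate 2 together, Wnt11 to -0.084 without mutant replicates 1 and 2 and control replicate 1, and Wnt2 to 0.43, Wnt7b to 0.39 and Porcn to 0.039 with the epithelium mean as a covariate. Leaving out single arrays gave -0.10 to 0.080 for Wnt2, -0.056 to 0.16 for Wnt11 and -0.047 to 0.020 for Wls. The epithelium mean was lower on every mutant array than on every control array, so the fit with that covariate can hardly tell it from genotype. The cause of the sign turns was not tested. The count of 14 genes over the whole array became 8 after quantile normalization, 24 with arrays centred on their medians, 25 above the 30th percentile of expression and 46 with a trended, robust variance, and it stayed within 1.5 times with averaged probe sets (18), with array weights (20) and without mutant replicates 1 and 2 and control replicate 1 (20). It was 0 with the replicate block (2511 at an unadjusted p under 0.05), with the epithelial covariate (1224), without control replicate 1 and mutant replicate 2 together (2716), and with any single array left out (0 to 0, with 1797 to 3084). Whether the replicate numbers pair the samples was not settled. Deviations of same-numbered arrays from their group mean correlated at -0.04, -0.06 and 0.07 over genes. Those of differently numbered mutant and control arrays correlated between -0.09 and 0.14. Deviations within groups of 3 cannot tell whether arrays shared a litter or a batch. The replicate block called 0 of the 10 genes. The number of arrays and unknown detection of dim probe sets limit all values.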
